A study of Rattus norvegicus with 4 samples.

Results

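The nuclear-encoded subunits of oxidative phosphorylation were followed across 4 Affymetrix rat arrays, each hybridised with pooled kidney RNA. A gene was taken as a subunit when its probe set carried a single symbol that begins with Ndufa, Ndufb, Ndufc, Ndufs, Ndufv, Sdha, Sdhb, Sdhc, Sdhd, Uqcr, Cox4 to Cox8 or Atp5, without pseudogenes and assembly factors. Genes with several probe sets are represented by the brightest on average over the 4 arrays. The rule gave 79 genes of 14217 on the array: 36 of complex I, 4 of complex II, 7 of complex III, 16 of complex IV and 16 of complex V. Of these, 73 lay above a floor of 4.51 on the log2 scale (the 50th percentile of all values) on at least 1 array, as did 9393 genes of the array. The other 6 were below it on all arrays and are described with complex IV and complex I.

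The kidneys came from male Wistar rats of 300 to 480 g and underwent 29 min of primary warm ischaemia before removal, as a model of donation after cardiac death. All 4 groups then received 3 h of cold machine perfusion with University of Wisconsin solution, an organ preservation fluid. The heparin group (low molecular weight heparin) and the PPS group, a compound the labels give only by that abbreviation, had 10 IU/ml of the agent in the cold and the warm perfusate. They went on, as did the warm group without an agent, to 30 min with warm, oxygenated Krebs-Henseleit buffer (modified), which stands in for reperfusion. The cold group ended after the cold perfusion. Each group is 1 array and 1 equimolar RNA pool of 3 kidneys, so no difference below has a replicate check or a test, and the number of arrays limits the precision of every value. In such pools fewer cells of a type and less RNA per cell cannot be told apart.

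Oxidative phosphorylation takes electrons from NADH at complex I (NADH dehydrogenase) and from succinate at complex II (succinate dehydrogenase). Complex III (the cytochrome bc1 complex) and complex IV (cytochrome c oxidase) pass them on to oxygen. Complexes I, III and IV pump protons, and complex V (ATP synthase) makes ATP from the proton gradient. The kidney cortex is rich in mitochondria, and its proximal tubules depend on this pathway to drive sodium transport and are readily injured by lack of oxygen.

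Subunit genes lie on many chromosomes but are known in mammals to share control by NRF1, by the ETS factor GABP, by YY1 and by the estrogen-related receptors. Promoters were read from RefSeq for the rat assembly GRCr8, as windows of 300 bases that end 50 bases after the start of the gene. Entries were found for 72 of the 79 members, and Ndufa8, Ndufb9, Uqcr11, Cox4i2, Cox6a1, Cox6c and Atp5pd had none. Each window was searched on both strands for an NRF1 core (GCATGCG), an ETS core (CCGGAAG), a YY1 core (AAGATGG) and an estrogen-related receptor core (AAGGTCA). Matches of different strings may overlap, and the NRF1 core overlaps its own reverse complement. Shown are the promoters of the ubiquitous Cox8a and of its sister isoform Cox8b, of Cox5a, and of Sdhd, Uqcrc2 and Atp5pf, whose values are described below. Capitals mark matches on either strand.
Cox8a, chr1:213833574-213833873, minus strand: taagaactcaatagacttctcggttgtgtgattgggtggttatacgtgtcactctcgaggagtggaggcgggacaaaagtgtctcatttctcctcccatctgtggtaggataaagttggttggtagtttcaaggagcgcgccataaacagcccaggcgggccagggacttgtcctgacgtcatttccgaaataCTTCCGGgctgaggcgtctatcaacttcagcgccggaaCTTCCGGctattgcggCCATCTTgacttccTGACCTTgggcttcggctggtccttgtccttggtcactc
Cox8b, chr1:205408224-205408523, minus strand: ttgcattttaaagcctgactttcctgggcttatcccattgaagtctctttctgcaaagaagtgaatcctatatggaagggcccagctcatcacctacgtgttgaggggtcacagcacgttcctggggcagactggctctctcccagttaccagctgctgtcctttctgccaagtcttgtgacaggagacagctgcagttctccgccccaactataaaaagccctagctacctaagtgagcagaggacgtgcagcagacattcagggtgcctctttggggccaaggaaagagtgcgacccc
Cox5a, chr8:66818034-66818333, plus strand: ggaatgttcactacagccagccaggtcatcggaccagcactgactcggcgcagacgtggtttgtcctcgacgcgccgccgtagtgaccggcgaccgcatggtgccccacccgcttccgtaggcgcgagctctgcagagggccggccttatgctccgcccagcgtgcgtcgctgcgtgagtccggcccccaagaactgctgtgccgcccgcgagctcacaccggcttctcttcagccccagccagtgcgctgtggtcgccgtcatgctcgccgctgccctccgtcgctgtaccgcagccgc
Sdhd, chr8:59850592-59850891, minus strand: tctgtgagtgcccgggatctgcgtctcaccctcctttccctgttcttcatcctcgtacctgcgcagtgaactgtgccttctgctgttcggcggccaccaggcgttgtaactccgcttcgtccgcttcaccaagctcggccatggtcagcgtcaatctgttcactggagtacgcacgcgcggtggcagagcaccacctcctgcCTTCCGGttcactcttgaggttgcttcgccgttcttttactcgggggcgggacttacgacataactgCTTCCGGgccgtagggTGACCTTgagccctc
Uqcrc2, chr1:184598990-184599289, plus strand: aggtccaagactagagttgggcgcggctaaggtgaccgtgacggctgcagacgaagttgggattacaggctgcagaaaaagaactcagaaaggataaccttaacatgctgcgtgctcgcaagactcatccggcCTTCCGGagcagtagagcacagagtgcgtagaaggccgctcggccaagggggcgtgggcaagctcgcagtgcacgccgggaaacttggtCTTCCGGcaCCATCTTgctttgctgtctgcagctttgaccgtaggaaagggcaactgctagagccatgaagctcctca
Atp5pf, chr11:37375052-37375351, minus strand: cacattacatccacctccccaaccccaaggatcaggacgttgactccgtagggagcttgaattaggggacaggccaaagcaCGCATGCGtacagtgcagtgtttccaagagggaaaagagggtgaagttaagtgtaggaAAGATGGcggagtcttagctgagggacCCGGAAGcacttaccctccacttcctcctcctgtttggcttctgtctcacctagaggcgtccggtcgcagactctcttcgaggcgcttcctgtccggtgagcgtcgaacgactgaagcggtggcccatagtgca

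The Cox8a window held 2 ETS cores, 1 YY1 core and 1 estrogen-related receptor core, whereas the windows of Cox8b and Cox5a held none of the 4 strings. The Sdhd window held 2 ETS cores and 1 estrogen-related receptor core, the Uqcrc2 window 2 ETS cores and 1 YY1 core, and the Atp5pf window an NRF1 core, an ETS core and a YY1 core. Among the 67 subunits above the floor with an entry, 39 windows (58.2%) held at least 1 of the 4 strings, beside 32.4% of 7874 windows of all genes above the floor and 22.0% of 27457 windows of all genes. The estrogen-related receptor core was in 16.4% of the subunit windows and in 2.79% of those of all genes above the floor. The YY1 core was in 26.9% of the subunit windows and in 8.78% of those of all genes above the floor. The ETS core stood at 29.9% of the subunit windows and 19.2% of those of all genes above the floor, and the NRF1 core at 13.4% and 6.50%. A match is a run of letters in a window, not a binding site or a cause, and a window without one says nothing about the factor.

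The subunits were abundant and flat. Of the 73 above the floor, 70 had a mean log2 value of at least 11, and 72 were above the floor on all 4 arrays. The range over the arrays, the highest minus the lowest log2 value, had a median of 0.13 over the 73 subunits and of 0.29 over all 9393 genes. It stayed under 0.25 for 64 subunits (87.7%), beside 42.7% of all genes, and under 0.5 for 71 (97.3%), beside 78.0%. High signals vary less on these arrays, so other genes of the same level were set beside them: among 1650 other genes with a mean of at least 11 the median range was 0.22, and 57.4% stayed under 0.25. At a mean of at least 13 the range stayed under 0.25 for 41 of 42 subunits (97.6%), beside 214 of 343 other genes (62.4%). The subunits thus spread less over the 4 arrays than other genes of similar signal, which is a description of these arrays and not a test.

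**Figure D1:**
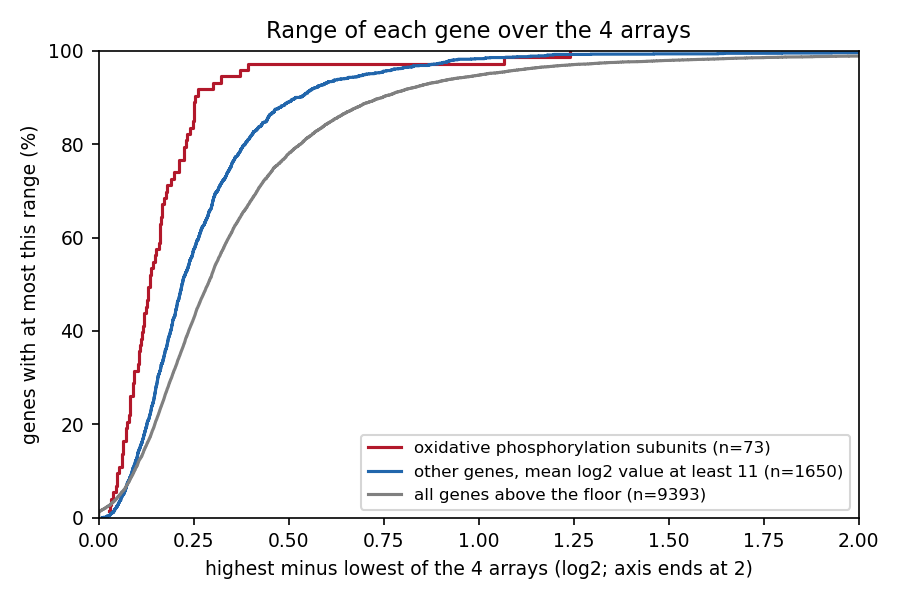
Share of genes (vertical axis, percent) whose highest minus lowest log2 value over the 4 arrays is at most the value on the horizontal axis, for the 73 subunits, for 1650 other genes with a mean log2 value of at least 11 and for all 9393 genes above the floor. The curve of the subunits passes 87.7% at 0.25, where the others are at 57.4% and 42.7%, and its last 2 steps are Cox5a and Cox8b.

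All differences that follow were taken after values under the floor had been raised to it, and a gene is counted when it differs by at least 1 on the log2 scale, which is 2-fold. In warm minus cold, 1 of 73 subunits (Cox8b) was higher by that limit and none was lower, where 2.48% of all genes were higher and 1.16% lower. In heparin minus cold, 1 (Cox5a) was higher and none was lower, beside 1.17% of all genes higher and 0.916% lower. For PPS against cold no subunit was past 2-fold, beside 1.03% of all genes higher and 0.788% lower. In heparin minus warm, Cox8b was lower and no subunit was higher, beside 1.48% and 0.383% of all genes. For PPS against warm the same gene was lower and none was higher, beside 1.71% and 0.511% of all genes. Between the agents (heparin minus PPS) no subunit was past the limit, beside 0.192% of all genes higher and 0.298% lower. Counts of 0 or 1 in 73 lie near these shares. Cox8b was among the 73 only through its warm value, so the direction of its differences was fixed by the floor and is no support. The 3 comparisons with cold share the cold array and the 2 with warm share the warm array, so they are not separate observations.

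Below that limit, most subunits read slightly higher on the cold array than on the others. The warm array was below the cold array for 58 of 73 subunits (79.5%), beside 50.7% of all genes and 61.6% of the 1650 other genes with a mean of at least 11. Heparin was below cold for 54 (74.0%), beside 48.8% and 58.7%, and PPS was below cold for 53 (72.6%), beside 51% and 60.1%. Cold was the highest of the 4 arrays for 45 of the 72 subunits above the floor on all of them (62.5%), beside 33.1% of 9166 genes and 43.8% of the other abundant genes. It was the lowest for 9 of 72 (12.5%), beside 29.1% of genes. Warm was the highest for only 5 of 72 subunits, beside 25.3% of genes.

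The size of this difference was small. Against cold, the median over the 73 subunits was -0.05 for heparin, -0.08 for PPS and -0.07 for warm, where those over all genes were 0, -0.0039 and -0.0032. Over the 1650 other abundant genes they were -0.04, -0.05 and -0.06, so the subunits' medians lay close to those of genes with a similar signal. A larger share of subunits was on the lower side, but their differences were also less spread. In warm minus cold the quartiles were -0.14 and -0.01 for the subunits and -0.19 and 0.08 for the other abundant genes. With a similar median below 0, a narrower spread puts more genes below 0, so in warm minus cold the larger share does not mean a larger shift. In PPS minus cold the subunits' median was the lower one, -0.08 beside -0.05. At a mean of at least 13, warm was below cold for 34 of 42 subunits (81.0%) and for 225 of 343 other genes (65.6%), with medians of -0.06 for both. At that level the medians of subunits and other genes were -0.07 and -0.05 in PPS minus cold. In heparin minus cold they were -0.06 and -0.05. Among the warm-perfused arrays the subunits were balanced around 0: heparin was below warm for 30 of 73 subunits (41.1%; 46.3% of all genes) and PPS was below warm for 34 (46.6%; 49.4%). Heparin was below PPS for 36 (49.3%), beside 43.5% of all genes.

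The direction against the cold array holds on the deposited scale, in which all arrays have nearly the same distribution. The poly-A control RNAs, which are added to the sample RNA before labelling, read higher than on cold by a median of 1.28 on heparin, 1.10 on PPS and 1.25 on warm over 24 control probe sets. Scaled to them, the median of all genes became -1.13 in warm minus cold, and that of the subunits -1.20, with 69 of 73 subunits past 2-fold lower. This scaling shifts all values of an array by the same amount. The difference between subunits and all genes, -0.07, was therefore bound to stay while the level of both moved, and the scaling does not check it. The 3' minus 5' log2 difference of beta-actin, a sign of how far transcripts were copied or degraded, was 3.39 on the heparin, 3.19 on the PPS, 3.22 on the warm and 2.79 on the cold array, and that of GAPDH was 0.72, 0.81, 0.84 and 0.60 in the same order. Both were smallest on the cold array, and their part in the subunits' difference was not tested.

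**Figure D2:**
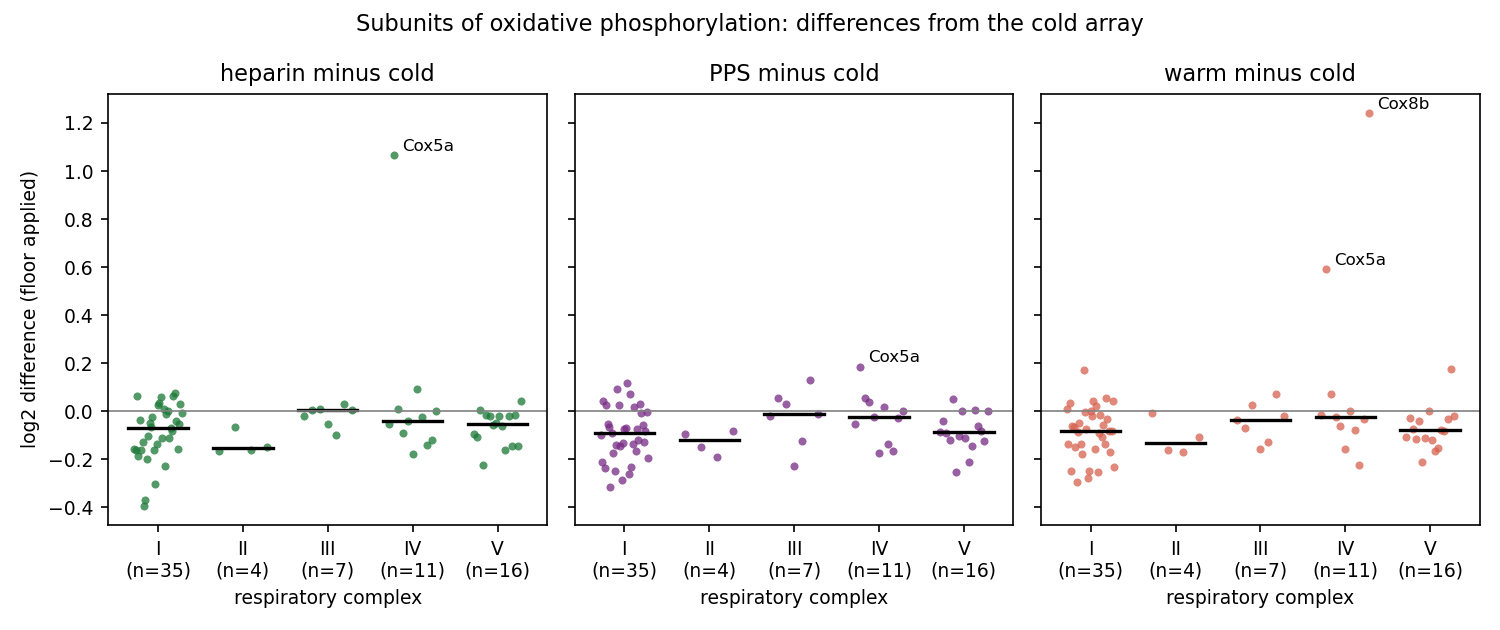
Log2 difference from the cold array (vertical axis) for each of the 73 subunits (points), by complex (horizontal axis), on the heparin, PPS and warm arrays, with values under the floor raised to it and a bar at the median of each complex. Nearly all points lie between -0.4 and 0.2, most of them below 0, and the points that stand apart are Cox5a (1.07 on heparin, 0.59 on warm) and Cox8b (1.24 on warm).

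Complex I had 35 subunits above the floor, with medians of -0.07 for heparin, -0.09 for PPS and -0.08 for warm, each against cold. Warm was below cold for 28 of 35, heparin for 26 and PPS for 27, beside 50.7%, 48.8% and 51% of all genes. Among the other abundant genes these shares were 61.6%, 58.7% and 60.1%. Cold was the highest array for 22, beside 33.1% of genes above the floor on all arrays and 43.8% of the other abundant genes. The same shares apply to the counts within this and the other complexes below. The core subunits carry the flavin and the iron-sulfur clusters that pass electrons from NADH to ubiquinone, and 6 of them were members. Cold was the highest array for 5 of the 6, and their differences from cold ran between -0.17 and 0.04 on the warm array.

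Ndufv1, which binds NADH and the flavin, read 12.73 on the heparin, 12.70 on the PPS, 12.70 on the warm and 12.78 on the cold array. Ndufv2, its iron-sulfur partner, read 13.56 on the heparin, 13.53 on the PPS, 13.57 on the warm and 13.53 on the cold array, the core subunit that was highest on warm and not on cold. Ndufs1, the large iron-sulfur subunit, read 13.46 on the heparin, 13.46 on the PPS, 13.48 on the warm and 13.53 on the cold array. These 3 subunits form the arm that takes up NADH, and their ranges over the 4 arrays were all under 0.25. Ndufs3 read 12.61 on the heparin, 12.57 on the PPS, 12.55 on the warm and 12.69 on the cold array. Ndufs7, which holds the last iron-sulfur cluster before ubiquinone, read 12.64 on the heparin, 12.63 on the PPS, 12.60 on the warm and 12.68 on the cold array. Ndufs8 read 11.42 on the heparin, 11.45 on the PPS, 11.41 on the warm and 11.58 on the cold array. In these 3 subunits cold was highest, warm was lowest and the agents lay between.

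The other 29 subunits of complex I, which surround the core and serve its assembly and stability, had medians of -0.10 for heparin, -0.10 for PPS and -0.07 for warm, each against cold. The widest range of complex I was that of Ndufa5, an accessory subunit of the matrix arm, at 0.39. Its values were 11.09 on the heparin, 11.17 on the PPS, 11.19 on the warm and 11.49 on the cold array, with differences of -0.39, -0.31 and -0.29 against cold in that order. Ndufb11, a subunit of the membrane arm, read 12.00 on the heparin, 12.01 on the PPS, 12.02 on the warm and 12.30 on the cold array. The warm-perfused arrays lay close together there, with differences from cold of -0.30, -0.29 and -0.28 for heparin, PPS and warm. Ndufb8, another membrane arm subunit, read 9.06 on the heparin, 9.06 on the PPS, 9.04 on the warm and 9.29 on the cold array.

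Ndufb2 read 13.40 on the heparin, 13.40 on the PPS, 13.28 on the warm and 13.53 on the cold array, with cold highest and warm lowest. Ndufa6, an accessory subunit of the matrix arm that binds the acyl carrier protein, stood out for heparin: it read 11.82 on the heparin, 12.10 on the PPS, 12.10 on the warm and 12.19 on the cold array. Its difference was -0.29 in heparin minus warm and -0.28 in heparin minus PPS, the lowest subunit in the second of these comparisons, while PPS and warm read alike. Ndufv3, a small accessory subunit of the flavin arm, went the other way, with 11.53 on the heparin, 11.34 on the PPS, 11.30 on the warm and 11.53 on the cold array. A second probe set of Ndufv3 read 9.29, 9.40, 9.43 and 9.53 in the same order, so heparin was above warm on the probe set used and below it on the other.

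Ndufab1, the mitochondrial acyl carrier protein, was the complex I subunit with the highest warm minus cold difference, 0.17, at 13.62 on the heparin, 13.78 on the PPS, 13.86 on the warm and 13.69 on the cold array. Ndufc1 had the narrowest range of complex I, 0.03, with 12.30 on the heparin, 12.32 on the PPS, 12.29 on the warm and 12.30 on the cold array. Ndufa7 read 11.53 on the heparin, 11.56 on the PPS, 11.68 on the warm and 11.73 on the cold array, and a dimmer second probe set read 7.01, 7.12, 7.12 and 7.71 in the same order. Both placed cold highest, but the warm minus cold difference was -0.05 on the brighter and -0.60 on the dimmer probe set.

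The remaining accessory subunits followed the same range, with differences from -0.29 to 0.17 in warm minus cold over all 29, and 21 of 29 below cold on the heparin array, 21 on the PPS array and 23 on the warm array. Ndufa13, a membrane subunit also known as a cell death regulator, read 12.15 on the heparin, 12.10 on the PPS, 12.08 on the warm and 12.33 on the cold array. Ndufa1, a small subunit encoded on the X chromosome, read 14.20 on the heparin, 14.26 on the PPS, 14.37 on the warm and 14.36 on the cold array, with heparin lowest. Ndufs6, a zinc-binding subunit, read 13.47 on the heparin, 13.39 on the PPS, 13.36 on the warm and 13.40 on the cold array, with heparin highest. Cold was the lowest array for Ndufs4, a subunit known from inherited complex I deficiency, at 11.20 on the heparin, 11.17 on the PPS, 11.19 on the warm and 11.14 on the cold array. It was also the lowest for Ndufa12, at 13.03 on the heparin, 13.01 on the PPS, 13.01 on the warm and 12.97 on the cold array, and for Ndufb5, at 13.31 on the heparin, 13.37 on the PPS, 13.30 on the warm and 13.25 on the cold array. These 6 genes were named after their values were seen.

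Ndufa4 keeps a name of complex I but is now placed in complex IV, and it read 14.07 on the heparin, 14.13 on the PPS, 14.05 on the warm and 14.20 on the cold array. Its paralogue Ndufa4l2, known in other tissues as a target of hypoxia-inducible factor, was at 2.16 on all 4 arrays and thus below the floor after cold perfusion alone and after each warm perfusion.

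Complex II, the link to the citrate cycle, was the only complex in which cold was the highest array for every member (4 of 4). That share was 33.1% over genes above the floor on all arrays and 43.8% over the other abundant genes. Sdha, the flavoprotein that oxidises succinate, read 13.55 on the heparin, 13.62 on the PPS, 13.70 on the warm and 13.71 on the cold array. Sdhb, the iron-sulfur subunit, read 13.52 on the heparin, 13.44 on the PPS, 13.43 on the warm and 13.59 on the cold array. The 2 catalytic subunits thus differed in which array was lowest, heparin for Sdha and warm for Sdhb. Sdhc, a membrane anchor, read 12.97 on the heparin, 12.94 on the PPS, 12.96 on the warm and 13.13 on the cold array, with the widest range of the complex at 0.19. Sdhd, the other anchor, read 13.35 on the heparin, 13.42 on the PPS, 13.39 on the warm and 13.50 on the cold array, the narrowest range at 0.15. Its second probe set read 11.51 on the heparin, 11.34 on the PPS, 11.35 on the warm and 11.77 on the cold array, a warm minus cold difference of -0.42 against -0.11 on the probe set used. The order of the 3 warm-perfused arrays differed between these probe sets, and their place below cold did not.

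Complex III stayed closest to cold on the heparin and PPS arrays, with medians of 0.0043 for heparin, -0.01 for PPS and -0.04 for warm, each against cold over 7 subunits, and cold was highest for 3 of them. Uqcrc1, a core protein of the matrix side, read 13.19 on the heparin, 13.22 on the PPS, 13.21 on the warm and 13.19 on the cold array, with cold lowest. Uqcrc2, the other core protein, read 13.36 on the heparin, 13.18 on the PPS, 13.25 on the warm and 13.41 on the cold array, and had the widest range of the complex at 0.23. Its second probe set read 11.95 on the heparin, 11.90 on the PPS, 11.90 on the warm and 12.12 on the cold array, again with cold highest and heparin next. The core proteins thus placed cold at opposite ends.

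Uqcrfs1, the Rieske iron-sulfur protein that takes electrons from ubiquinol, read 13.18 on the heparin, 13.16 on the PPS, 13.15 on the warm and 13.28 on the cold array. Uqcr11, a small subunit, read 13.87 on the heparin, 13.92 on the PPS, 13.79 on the warm and 13.87 on the cold array, and had the highest PPS minus warm difference of all subunits, 0.13. Uqcrq, another small subunit, had the narrowest range, 0.03, at 13.36 on the heparin, 13.34 on the PPS, 13.33 on the warm and 13.35 on the cold array. The remaining subunits of complex III, Uqcr10 and Uqcrh, differed from cold by between -0.04 and 0.13.

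Complex IV held the members with the widest ranges, Cox8b and Cox5a. Of its 16 genes, 11 were above the floor, with medians of -0.04 for heparin, -0.03 for PPS and -0.02 for warm, each against cold, and cold was highest for 6 of the 10 that were above the floor on all arrays. Its ubiquitous isoforms were bright and flat. Cox4i1, the ubiquitous form of the largest nuclear-encoded subunit, read 14.52 on the heparin, 14.52 on the PPS, 14.56 on the warm and 14.57 on the cold array, a range of 0.05. Cox6a1, the ubiquitous form of a regulatory subunit, read 13.93 on the heparin, 14.06 on the PPS, 14.00 on the warm and 14.02 on the cold array. Cox8a read 13.96 on the heparin, 14.05 on the PPS, 14.05 on the warm and 14.08 on the cold array.

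The isoforms of other tissues or conditions were below the floor on all arrays. Cox4i2, a form known from lung and from hypoxia, was at 2.11 on each array, as were the heart and muscle form Cox6a2, the testis form Cox6b2 and Cox7b2, and 2.11 is the lowest value in the files. Cox7a1, the heart and muscle form, read 2.69 on the heparin, 2.73 on the PPS, 2.69 on the warm and 2.62 on the cold array. No array therefore showed the forms Cox4i2, Cox6a2 and Cox7a1 above the floor, and 30 min of warm oxygenated perfusion placed none of them above it.

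Cox8b, the form of heart, skeletal muscle and brown fat in rodents, was the exception. It read 3.95 on the heparin, 3.95 on the PPS, 5.75 on the warm and 3.50 on the cold array, so that only the warm array was above the floor. Against the floor it was at least 2.36-fold higher in warm than in cold, and lower to the same bound in heparin than in warm and in PPS than in warm. The value is low, near the background of the array, and rests on 1 probe set on 1 array. With the floor at the 60th percentile it was below the floor on all 4 arrays and the difference was 0.

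Markers of the tissues known for Cox8b were read beside it. Of 5 markers of brown and white fat, 1 was above the floor: Fabp4, a fatty acid carrier also found in capillary endothelium, read 8.42 on the heparin, 9.37 on the PPS, 9.70 on the warm and 9.07 on the cold array. The summed level of the 5 was, as log2, 8.51 on the heparin, 9.41 on the PPS, 9.75 on the warm and 9.12 on the cold array, and so it followed Fabp4 and was highest on warm. The defining fat genes were below the floor: Ucp1, the uncoupling protein of brown fat, read 2.28 on the heparin, 2.34 on the PPS, 3.00 on the warm and 2.28 on the cold array, and Plin1, the coat protein of fat droplets, was at 2.16 on each. Cidea, a brown fat gene, read 2.59 on the heparin, 2.62 on the PPS, 3.22 on the warm and 2.30 on the cold array, below the floor but highest on warm as well. Of 5 markers of striated muscle none was above the floor, with Ckm, Myh7, Tnnt3 and Actn3 at 2.11 on all arrays and a summed log2 level of 4.64, 4.44, 4.58 and 4.43 in the order heparin, PPS, warm and cold. Their part in the Cox8b value was not tested.

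Cox5a, a matrix-side subunit, gave values that depended on the probe set. The probe set with a single symbol read 8.74 on the heparin, 7.86 on the PPS, 8.27 on the warm and 7.67 on the cold array. This made it 2.09-fold higher in heparin than in cold (log2 difference 1.07), with 0.88 in heparin minus PPS. Against warm the difference was 0.47 for heparin and -0.41 for PPS. A second probe set, annotated to both LOC100361008 and Cox5a and therefore outside the rule, read 13.99 on the heparin, 14.01 on the PPS, 14.02 on the warm and 14.13 on the cold array. On it the heparin minus cold difference was -0.14, the opposite direction, and its range was like those of the other abundant subunits. Scaled to the poly-A controls the heparin minus cold difference of the first probe set was -0.19. The gene was thus past 2-fold in heparin minus cold on a dim probe set, and not on the bright one.

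**Figure D3:**
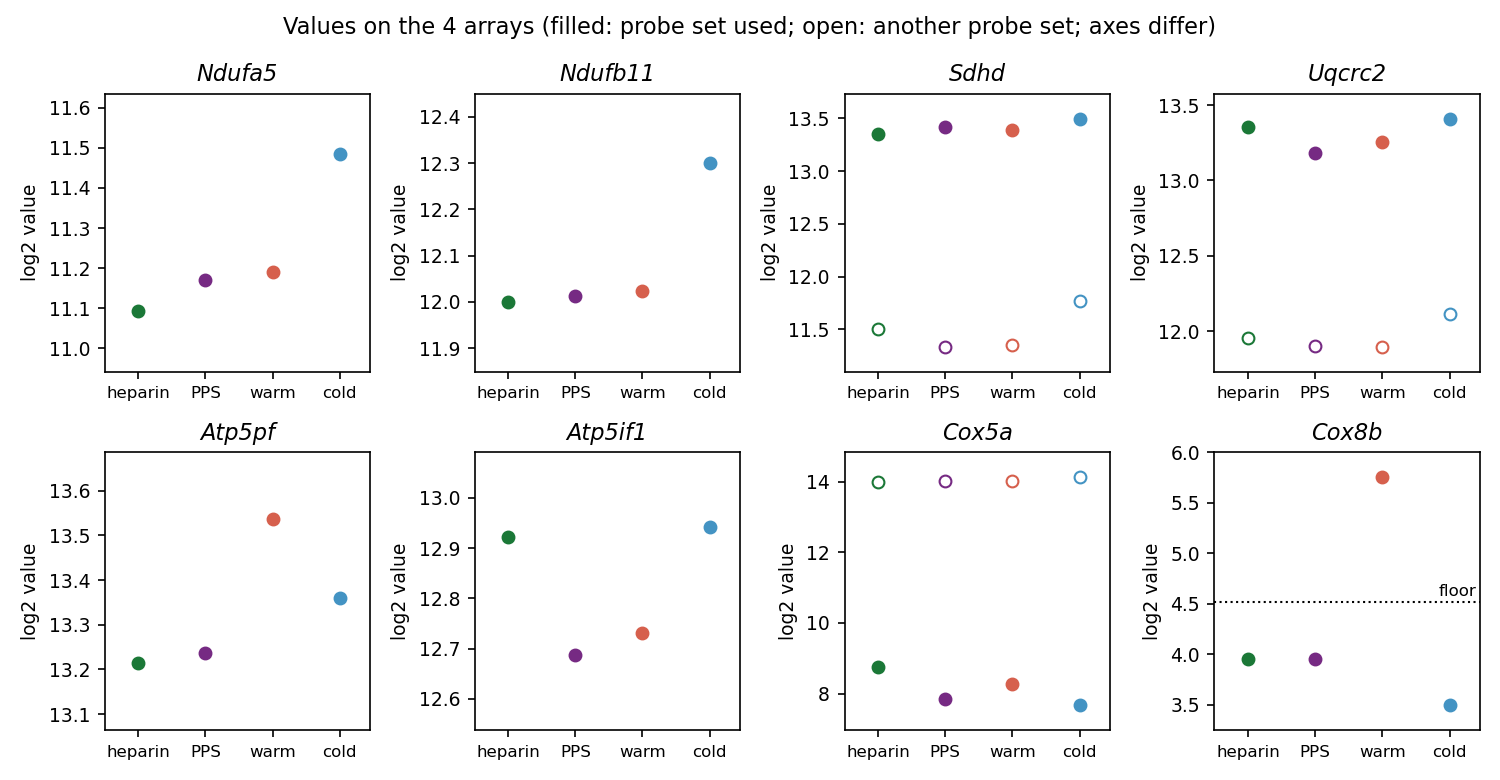
Log2 values (vertical axes, which differ between panels) of 8 subunits on the heparin, PPS, warm and cold arrays (horizontal axis), with 1 filled point per array for the probe set used and open points for another probe set of the same gene. Ndufa5 and Ndufb11 are highest on cold, both probe sets of Sdhd and of Uqcrc2 are highest on cold, Atp5pf and Cox8b are highest on warm, and the open and filled points of Cox5a run in opposite directions between heparin and cold.

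Among the remaining subunits of complex IV above the floor, Cox6c and Cox7c were the lowest relative to cold. Cox6c read 14.40 on the heparin, 14.40 on the PPS, 14.42 on the warm and 14.58 on the cold array. Cox7c read 13.68 on the heparin, 13.66 on the PPS, 13.60 on the warm and 13.82 on the cold array. In both, cold was highest by more than 0.13. Cox7a2l, which takes part in joining complexes III and IV into supercomplexes, read 11.77 on the heparin, 11.70 on the PPS, 11.68 on the warm and 11.68 on the cold array, the highest subunit in heparin minus cold after Cox5a, at 0.09. The last 3 members stayed flat: Cox5b, a zinc-binding subunit, read 13.35 on the heparin, 13.39 on the PPS, 13.41 on the warm and 13.34 on the cold array. Cox6b1, which joins the monomers of the enzyme, read 13.27 on the heparin, 13.29 on the PPS, 13.25 on the warm and 13.31 on the cold array. Cox7b read 14.72 on the heparin, 14.61 on the PPS, 14.67 on the warm and 14.75 on the cold array. Cold was highest for Cox6b1 and Cox7b and lowest for Cox5b. These genes were named after their values were seen.

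Complex V had 16 subunits, all above the floor, with medians of -0.05 for heparin, -0.09 for PPS and -0.08 for warm, each against cold. Warm was below cold for 14 of 16, heparin for 14 and PPS for 12, beside 61.6%, 58.7% and 60.1% of the other abundant genes. Over all genes these shares were 50.7%, 48.8% and 51%. Cold was highest for 10, beside 33.1% of genes above the floor on all arrays and 43.8% of the other abundant genes. The catalytic F1 head turns ADP into ATP. Its alpha subunit Atp5f1a read 14.20 on the heparin, 14.21 on the PPS, 14.19 on the warm and 14.29 on the cold array. The catalytic beta subunit Atp5f1b read 14.67 on the heparin, 14.74 on the PPS, 14.75 on the warm and 14.78 on the cold array. The rotor subunit gamma, Atp5f1c, read 14.65 on the heparin, 14.55 on the PPS, 14.57 on the warm and 14.64 on the cold array. Warm was below cold for all 5 F1 subunits, with differences from -0.12 to -0.03, and cold was highest for 3 of the 5.

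Atp5f1e, the epsilon subunit of the rotor, read 14.02 on the heparin, 14.09 on the PPS, 14.00 on the warm and 14.04 on the cold array, with 0.09 in PPS minus warm. The remaining 11 subunits form the membrane ring, the peripheral stalk that holds the head in place, and the parts that join pairs of the enzyme, together with an inhibitor, and their medians were -0.05, -0.10 and -0.08 for heparin, PPS and warm against cold. Atp5pf, coupling factor 6 of the peripheral stalk, had the widest range of the complex, 0.32, with 13.21 on the heparin, 13.24 on the PPS, 13.54 on the warm and 13.36 on the cold array. It was the subunit with the highest warm minus cold difference after Cox8b and Cox5a, 0.18, and both agents read lower than warm, with differences of -0.32 for heparin and -0.30 for PPS.

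Atp5if1, which blocks the reverse reaction of ATP synthase when respiration fails, read 12.92 on the heparin, 12.69 on the PPS, 12.73 on the warm and 12.94 on the cold array. Heparin and cold were close, and PPS and warm were lower, with a heparin minus warm difference of 0.19 and a PPS minus cold difference of -0.25. Atp5me, a membrane subunit at the contact between paired enzymes, had the narrowest range, 0.05, at 11.41 on the heparin array and 11.46 on each of the others. The inhibitor and coupling factor 6 thus took different orders over the same arrays.

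Other subunits of complex V showed the same small spread, and the genes in this paragraph were named after their values were seen. Atp5f1d, the delta subunit of the rotor, had the lowest heparin minus cold difference of the complex, -0.22, at 12.93 on the heparin, 13.04 on the PPS, 13.04 on the warm and 13.16 on the cold array. Atp5mc3, which encodes the c subunit of the proton-driven ring, read 14.82 on the heparin, 14.78 on the PPS, 14.77 on the warm and 14.88 on the cold array. Atp5po, which ties the peripheral stalk to the head, was highest on heparin, at 14.22 on the heparin, 14.18 on the PPS, 14.16 on the warm and 14.18 on the cold array. Atp5pb, the b subunit of that stalk, read 13.80 on the heparin, 13.88 on the PPS, 13.86 on the warm and 13.94 on the cold array. Atp5mk, a small membrane subunit, read 14.21 on the heparin, 14.22 on the PPS, 14.21 on the warm and 14.37 on the cold array. Of these, all but Atp5po were highest on cold.

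Additional probe sets allowed a limited check on the subunits. Beside Cox5a, second probe sets above the floor on all arrays existed for Ndufa7, Ndufv3, Sdhd and Uqcrc2. All 4 had heparin, PPS and warm below cold, as did the probe sets used. Their medians against cold were -0.25 for heparin, -0.33 for PPS and -0.32 for warm, lower than the -0.05, -0.08 and -0.07 of the 73 subunits. The size of the difference thus depended on the probe set. In warm minus cold Ndufv3 went the other way, with -0.10 on the second and -0.23 on the probe set used. Another 7 probe sets, each naming a subunit and a close copy of it, lay outside the rule. They name Ndufa10, Ndufs5, Uqcrb, Cox5a, Cox7a2, Atp5mc1 and Atp5mc2. Warm was below cold on 7 of 7, heparin on 4 and PPS on 7, with medians of -0.11, -0.08 and -0.09 in that order. A probe set of several symbols cannot tell a gene from its copy.

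Genes that work with the subunits were read in the same way. The mitochondrial genome encodes further subunits, and 2 of 13 were on the array. COX1, the catalytic subunit of complex IV, read 16.08 on the heparin, 16.11 on the PPS, 16.06 on the warm and 16.05 on the cold array. COX2 read 16.07 on the heparin, 16.09 on the PPS, 16.08 on the warm and 16.09 on the cold array. Both lie near the highest value in the files, 16.4, where further differences may not be seen.

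Of 48 listed assembly factors of the complexes, 40 were above the floor and none was past 2-fold in any of the 6 comparisons. Over all genes the shares ran from 0.192% to 2.48% in a direction, so a count of 0 lies near them. These shares also stand beside the 2-fold counts of the lists below. Their medians were -0.03 for heparin, -0.06 for PPS and -0.08 for warm, each against cold. The lowest in warm minus cold was Tmem186, an assembly factor of complex I, at 7.94 on the heparin, 7.99 on the PPS, 7.56 on the warm and 8.20 on the cold array (-0.64). Sdhaf4, which helps to mature Sdha, read 9.92 on the heparin, 9.86 on the PPS, 10.04 on the warm and 10.48 on the cold array. Cold was highest for both. The highest in warm minus cold was Nubpl (0.39), at 8.70 on the heparin, 8.65 on the PPS, 8.66 on the warm and 8.27 on the cold array. Ndufaf5, an assembly factor of complex I, was the highest in heparin minus cold (0.51). It read 9.36 on the heparin, 9.09 on the PPS, 9.09 on the warm and 8.84 on the cold array.

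The citrate cycle and pyruvate dehydrogenase supply the electrons, and all 16 measured genes were above the floor. Their medians were -0.10 for heparin, -0.09 for PPS and -0.13 for warm, each against cold, with 14, 13 and 12 of 16 below 0 in that order and none past 2-fold. The same shares below 0 were 48.8%, 51% and 50.7% of all genes and 58.7%, 60.1% and 61.6% of the other abundant genes. Dlst, a component of oxoglutarate dehydrogenase, had the lowest warm minus cold difference, -0.51, with 12.18 on the heparin, 12.24 on the PPS, 12.05 on the warm and 12.56 on the cold array. The highest was Cs, citrate synthase, at 12.68 on the heparin, 12.81 on the PPS, 13.05 on the warm and 12.81 on the cold array. The list of electron carriers covers ubiquinone synthesis, electron transfer flavoprotein and cytochrome c1. The last, Cyc1, is a subunit of complex III whose symbol lies outside the rule. The 13 measured genes of this list had medians of -0.0060 for heparin, -0.05 for PPS and -0.02 for warm, each against cold, with none past 2-fold.

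Of 17 listed regulators of mitochondrial biogenesis, 16 were above the floor, with medians of -0.02 for heparin, -0.05 for PPS and -0.06 for warm, each against cold. Ppargc1b, a coactivator of estrogen-related receptors, read 8.09 on the heparin, 8.08 on the PPS, 7.74 on the warm and 7.07 on the cold array, and its difference from cold was past 2-fold for heparin (1.02) and PPS (1.01) and 0.67 for warm. Gabpa, the DNA-binding subunit of GABP, read 9.54 on the heparin, 9.56 on the PPS, 10.06 on the warm and 9.14 on the cold array. Polrmt, the mitochondrial RNA polymerase, read 5.90 on the heparin, 5.62 on the PPS, 6.24 on the warm and 6.53 on the cold array. In Ppargc1b and Gabpa cold was lowest, and in Polrmt cold was highest. Of the 16 regulators, 7 were above cold and 9 below it on the heparin array, and the same counts held on PPS and on warm. Over all genes, 48.8%, 51% and 50.7% were below cold in that order. The regulators thus did not share a direction. The subunits themselves lay within 0.4 of cold apart from Cox5a and Cox8b.

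The exchange of ADP, ATP and phosphate across the inner membrane, and its uncoupling, were covered by 9 genes, of which 7 were above the floor. Slc25a5, an ADP and ATP carrier, read 14.73 on the heparin, 14.71 on the PPS, 14.75 on the warm and 14.84 on the cold array, as flat as the subunits. Ucp2, an uncoupling protein, read 7.07 on the heparin, 8.09 on the PPS, 8.07 on the warm and 7.55 on the cold array. Heparin was past 2-fold lower than PPS (-1.02) and, at the limit, than warm.

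**Figure D4:**
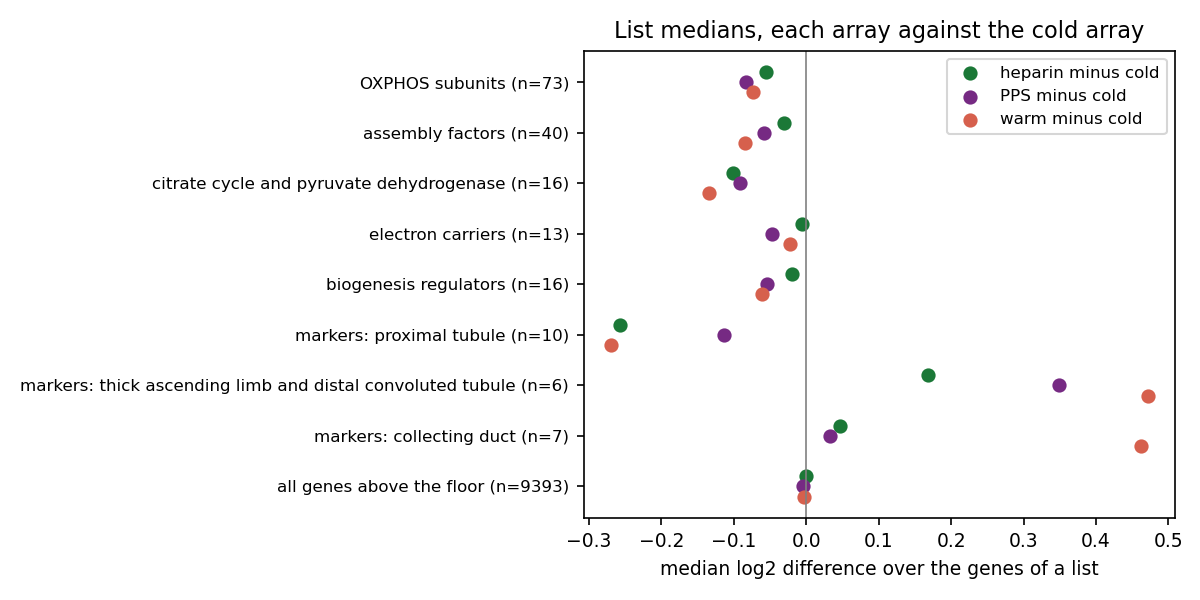
Median log2 difference from the cold array (horizontal axis) of the subunits, of 4 lists of related mitochondrial genes, of 3 lists of tubule markers and of all genes above the floor (vertical axis, with the number of genes), for the heparin, PPS and warm arrays (points). The subunits lie at -0.05, -0.08 and -0.07, next to the other mitochondrial lists, while the proximal tubule markers lie lower and the distal tubule markers higher.

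The arrays carried the markers of kidney. All 10 markers of the proximal tubule, a segment rich in mitochondria, were above the floor, as were 7 of 7 of the collecting duct and 6 of 7 of the distal convoluted tubule and thick ascending limb. The median difference of the proximal tubule markers was -0.26 for heparin, -0.11 for PPS and -0.27 for warm, each against cold, further from 0 than that of the subunits, with a summed log2 level of 16.8 on the heparin, 16.9 on the PPS, 16.8 on the warm and 17.0 on the cold array. Those of the distal convoluted tubule and thick ascending limb, segments also rich in mitochondria, went the other way, with medians of 0.17, 0.35 and 0.47 in the same order and summed log2 levels of 16.7 on the heparin, 16.8 on the PPS, 16.9 on the warm and 16.6 on the cold array. The other marker lists did not share a direction. The summed level was highest on cold for the 6 markers of smooth muscle, pericytes and fibroblasts, with medians against cold of -0.76 for heparin, -0.30 for PPS and -1.30 for warm and summed log2 levels of 10.6 on the heparin, 11.2 on the PPS, 10.3 on the warm and 11.4 on the cold array. Hbb, a haemoglobin chain and the red blood cell marker above the floor (1 of 2 measured), was also highest on cold, at 8.20 on the heparin, 9.22 on the PPS, 8.71 on the warm and 9.85 on the cold array. Lowest on cold were the 4 measured podocyte markers, all above the floor, with medians of 0.46 for heparin, 0.68 for PPS and 0.98 for warm and summed log2 levels of 11.9, 12.2, 12.3 and 11.5 in the order heparin, PPS, warm and cold. The 7 collecting duct markers had medians of 0.05, 0.03 and 0.46, with summed levels of 14.9, 14.8, 15.2 and 14.9 in that order. The 4 measured endothelial markers, all above the floor, had medians of 0.11, 0.0024 and 0.34, with summed levels of 12.9, 12.8, 13.2 and 12.8. Only 2 of 5 leukocyte markers reached the floor, and their medians were -0.17, -0.0056 and 0.12, with summed levels of 8.94, 9.11, 9.37 and 9.16. The part of these marker lists in the subunits' small difference was not tested.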

How the data were processed

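Messenger RNA was measured on 4 arrays of 31099 probe sets, 1 for each of the heparin, PPS, warm and cold groups. The authors deposited log2 expression values per probe set, made with GCRMA per the submitters' processing notes (version: not given in the sources used here). No header names the scale, and log2 was inferred from values of 2.11 to 16.4. GCRMA combines background correction, quantile normalization and summary, so a change in total messenger RNA would not be seen.

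Names came from the platform annotation: 20832 probe sets had 1 symbol and 436 had several. Symbols of all 79 members were the same in RefSeq (GRCr8). Values under the floor (50th percentile, 4.51) were raised to it before differences were taken. With 1 array per group, differences of at least 1 (2-fold) were counted without a test, beside the same count over all genes. Python 3.11.15, numpy 2.4.6, pandas 2.3.3 and matplotlib 3.10.9 were used.

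Members and lists were chosen with earlier results of these data known. Values on all arrays are given for members past 2-fold, for the 3 highest and 3 lowest in warm minus cold, heparin minus warm and PPS minus warm, for the widest and narrowest range per complex, and for members fixed by role; other named members were chosen after their values were seen. Alternatives were other floors, scaling to control probe sets, centring, other probe set choices and a 1.5-fold limit. Control probe sets (57) were left out.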

Additional observations from a re-analysis of the deposited data

How the results depend on the processing

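Of 180 values recomputed under another setting, 145 kept their direction and side of the limit or moved by under 0.1 (log2) or 1.5 times. The subunits' main medians all lay within 0.1 of 0, so a median could change sign and still be counted there. Naming genes by their RefSeq symbols changed no member, as all 79 were the same. The 145 are thus not a measure of how robust the small differences are. With the floor at the 60th percentile, or with members required above the floor on all 4 arrays, 0 subunits were past 2-fold between warm and cold, heparin and warm, or PPS and warm, because Cox8b drops out by construction; at the 60th percentile its difference was 0 in all 3. A limit of 1.5-fold gave 2 in warm minus cold and 1 in heparin minus PPS. Scaled to the poly-A controls, 71 subunits on heparin, 65 on PPS and 69 on warm were past 2-fold lower than on cold, with medians of -1.31, -1.13 and -1.20 beside all-gene medians of -1.25, -1.05 and -1.13. The same scaling gave 0 past 2-fold for either agent against warm, a median of -0.11 in heparin minus warm and -0.21 in heparin minus PPS, and 0.97 or -0.97 for Cox8b. Scaled to the hybridisation controls, the medians against cold were -0.16 for heparin, -0.66 for PPS and -0.46 for warm, those against warm were 0.30 for heparin and -0.18 for PPS, and heparin minus PPS was 0.47, with 0 past 2-fold in heparin minus cold and 1 in heparin minus PPS. Cox5a in heparin minus cold was 0.96 under that scaling, -0.19 under the poly-A scaling and -0.14 on the probe set it shares with LOC100361008, which was added after seeing the data. The cause of the differences between scalings was not tested. No paired analysis was possible because each group has 1 array. Differences of dim probe sets such as Cox8b are limited by signal over background, and those of COX1 and COX2 by the top of the scale.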
